A study of Mus musculus with 18 samples.

Results

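The 36 genes described here make, control or export sterols and fatty acids. They were chosen by name: 7 enzymes of the mevalonate steps, 11 enzymes that turn farnesyl diphosphate into cholesterol, 6 genes of sterol sensing and transport, 9 enzymes of fatty acid synthesis and desaturation, and 3 genes of sterol efflux. Each gene was read from its brightest probe set among those annotated to a single symbol. Such a probe set existed for 33 of the 36, and all 33 passed the filter on low values, out of 22180 genes in the series and 19016 tested. Acat2, the thiolase of the first mevalonate step, had no annotated probe set, and Idi1, the isopentenyl diphosphate isomerase, and Scd2, a stearoyl-CoA desaturase, were covered only by a probe set shared with another symbol, so they carry no value. The 16 measured enzymes of cholesterol synthesis are called the cholesterol enzymes below.

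Mouse neurospheres, which are floating cultures of neural stem and progenitor cells, were measured on 18 Affymetrix arrays in 6 groups of 3. The groups were a mosaic mixture of wild type and Pcdh19 knockout cells at day 4 and at day 0 of differentiation, knockout (KO) cells at day 4 and at day 0, and wild type (WT) cells at day 4 and at day 0. Pcdh19 is an X-linked protocadherin, and the day 0 cultures were undifferentiated neurospheres. The study describes its replicates as technical, so p-values measure only the spread between arrays, and whether separate animals or cultures stand behind them is not given. All values are log2 expression as deposited, and a fold change is the difference of group means on that scale. A gene is said to have risen or fallen where the adjusted p was under 0.05 in limma, a linear model fitted to all 19016 genes, with Benjamini-Hochberg adjustment over all of them.

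Cells control these genes through SREBP transcription factors, which are held in the endoplasmic reticulum with their escort SCAP by INSIG proteins while sterols are plentiful, and are carried to the Golgi and cut free when sterols run low. SREBP2 mainly drives cholesterol synthesis and SREBP1 mainly drives fatty acid synthesis, while oxysterols, formed when sterols are in excess, activate the LXR receptors that raise efflux genes and Srebf1. The brain makes its own cholesterol, and myelinating oligodendrocytes need much of it.

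The promoters of 7 genes are shown because these genes mark the patterns reported below: Hmgcs1, Lss and Cyp51 for the synthesis enzymes, Insig1 for the genes that fell, Abca1 for efflux, and Srebf1 and Fasn for the fatty acid arm. Each is the RefSeq window from 250 bases before to 50 bases after the annotated start on GRCm38.p6. Capitals mark matches, on either strand, to the CCAAT box (CCAAT), to a sterol regulatory element (TCACNCCAC) or to a DR4-like element of the kind LXR binds (GGTNA, any 5 bases, GGTCA). On the opposite strand a CCAAT box reads ATTGG.
Hmgcs1, chr13:119690101-119690400, plus strand: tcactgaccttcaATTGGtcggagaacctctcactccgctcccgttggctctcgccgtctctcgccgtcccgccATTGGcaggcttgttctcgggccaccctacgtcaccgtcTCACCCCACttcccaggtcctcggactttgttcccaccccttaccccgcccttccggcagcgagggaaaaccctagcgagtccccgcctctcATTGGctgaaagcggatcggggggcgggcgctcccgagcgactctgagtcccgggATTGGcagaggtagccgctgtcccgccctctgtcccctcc
Lss, chr10:76531355-76531654, plus strand: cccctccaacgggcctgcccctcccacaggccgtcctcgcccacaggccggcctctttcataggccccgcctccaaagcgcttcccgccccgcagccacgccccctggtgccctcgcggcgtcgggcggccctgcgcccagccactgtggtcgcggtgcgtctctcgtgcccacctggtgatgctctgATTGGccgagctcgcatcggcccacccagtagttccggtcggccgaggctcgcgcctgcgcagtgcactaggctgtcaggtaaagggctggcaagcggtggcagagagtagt
Cyp51, chr5:4104648-4104947, minus strand: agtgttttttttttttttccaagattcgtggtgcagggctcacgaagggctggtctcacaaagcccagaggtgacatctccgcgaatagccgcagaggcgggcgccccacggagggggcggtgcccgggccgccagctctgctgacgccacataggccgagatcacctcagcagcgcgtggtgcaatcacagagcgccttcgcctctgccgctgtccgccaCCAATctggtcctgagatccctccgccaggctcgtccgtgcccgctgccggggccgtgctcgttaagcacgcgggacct
Insig1, chr5:28071162-28071461, plus strand: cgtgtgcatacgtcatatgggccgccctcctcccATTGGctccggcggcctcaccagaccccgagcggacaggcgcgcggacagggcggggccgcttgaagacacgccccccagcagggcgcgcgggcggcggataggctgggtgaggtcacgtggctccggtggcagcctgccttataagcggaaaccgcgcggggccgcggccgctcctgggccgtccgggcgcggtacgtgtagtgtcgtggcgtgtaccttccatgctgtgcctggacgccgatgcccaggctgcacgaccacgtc
Abca1, chr4:53159846-53160145, minus strand: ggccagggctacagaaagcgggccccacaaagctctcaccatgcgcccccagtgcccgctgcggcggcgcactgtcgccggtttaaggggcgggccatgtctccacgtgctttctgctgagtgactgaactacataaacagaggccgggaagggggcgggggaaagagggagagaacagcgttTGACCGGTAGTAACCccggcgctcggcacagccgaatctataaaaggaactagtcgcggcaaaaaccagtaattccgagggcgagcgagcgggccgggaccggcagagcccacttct
Srebf1, the third of its 3 annotated starts, chr11:60210422-60210721, minus strand: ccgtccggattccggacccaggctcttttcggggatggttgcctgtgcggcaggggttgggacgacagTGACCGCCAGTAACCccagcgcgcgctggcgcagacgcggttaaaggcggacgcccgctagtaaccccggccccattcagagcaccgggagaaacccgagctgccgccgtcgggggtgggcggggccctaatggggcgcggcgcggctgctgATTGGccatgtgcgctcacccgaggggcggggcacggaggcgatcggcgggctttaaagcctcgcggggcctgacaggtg
Fasn, chr11:120824498-120824797, minus strand: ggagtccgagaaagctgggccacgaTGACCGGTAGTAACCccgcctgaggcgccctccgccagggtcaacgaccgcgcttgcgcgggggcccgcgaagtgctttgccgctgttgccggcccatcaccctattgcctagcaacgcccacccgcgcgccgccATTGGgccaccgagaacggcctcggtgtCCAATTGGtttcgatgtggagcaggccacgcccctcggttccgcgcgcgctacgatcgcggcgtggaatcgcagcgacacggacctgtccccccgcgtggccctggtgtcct

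RefSeq windows were found for 28 of the 36 genes. A CCAAT box was present in 21 of the 28 (75%), against 41.1% of 27025 mouse genes with a window and 37.4% of all 32851 windows. It was present in all 13 of the 16 cholesterol enzymes that had a window, 4 of them of the mevalonate steps and 9 of the later steps. Of the unmeasured enzymes, the window of Idi1 held it and that of Acat2 did not. The sterol regulatory element, as spelled, was found only in Hmgcs1, at position -137 from the start, and 1.44% of genes held it. The DR4-like element was found in 3 of the 28, Srebf1, Fasn and Abca1, against 0.226% of genes. The match in Abca1 (position -67) and the match in Fasn (position -225) had the same 15 letters, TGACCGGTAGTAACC, and the match in Srebf1 (position -182) read TGACCGCCAGTAACC. These are letter matches and not measured binding sites.

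Several facts of the whole series bear on the values. The arrays correlated at 0.981 to 0.986 within groups and 0.955 to 0.987 between groups. The labels call all cells female, but the Y-linked genes Eif2s3y (8.24 to 9.04), Kdm5d (6.85 to 8.2) and Uty (6.96 to 7.97) were high on all 18 arrays and Xist was low (2.68 to 3.98), which goes against that label. Pcdh19 measured 5.70, 5.53 and 5.86 in KO at day 4 against 6.90, 6.98 and 6.81 in WT at day 4, and 5.39, 5.46 and 5.68 in KO at day 0 against 6.85, 6.83 and 6.66 in WT at day 0. In the mosaic cultures it measured 6.54, 7.09 and 5.52 at day 4 and 6.03, 6.31 and 5.65 at day 0, so that both mosaic arrays of replicate 3 lay within the KO range of their day or below it. The mosaic day 4 array of replicate 3 also stood apart from the rest in the sterol genes, as described below. Mosaic values of single genes are therefore also given without it where they moved by more than 1.5 times or a call changed.

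Most of the sterol and fatty acid synthesis genes rose with differentiation in all 3 cultures. In the mosaic cultures 24 of the 33 genes rose and 2 fell between day 0 and day 4, against 14.4% of all genes higher and 11.9% lower. In KO, 18 rose and 1 fell, against 15% and 12.4% of all genes, and in WT, 19 rose and 1 fell, against 17.2% and 16.3%. The median change of the 33 genes was 0.61 in the mosaic cultures, 0.49 in KO and 0.45 in WT, and that of all genes was 0.02, 0.02 and 0.09 in the same order. The same 17 genes rose in all 3 cultures, Insig1 fell in all 3, and 7 genes passed in none. All 16 cholesterol enzymes had estimates above 0 in each culture, and the day 4 and day 0 arrays did not overlap in 15 of them in the mosaic cultures, 14 in KO and 13 in WT. Over all 33 genes, 25 in the mosaic cultures, 23 in KO and 24 in WT were higher on every day 4 array than on every day 0 array, against 20.3%, 22.1% and 27.1% of all genes.

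**Figure D1:**
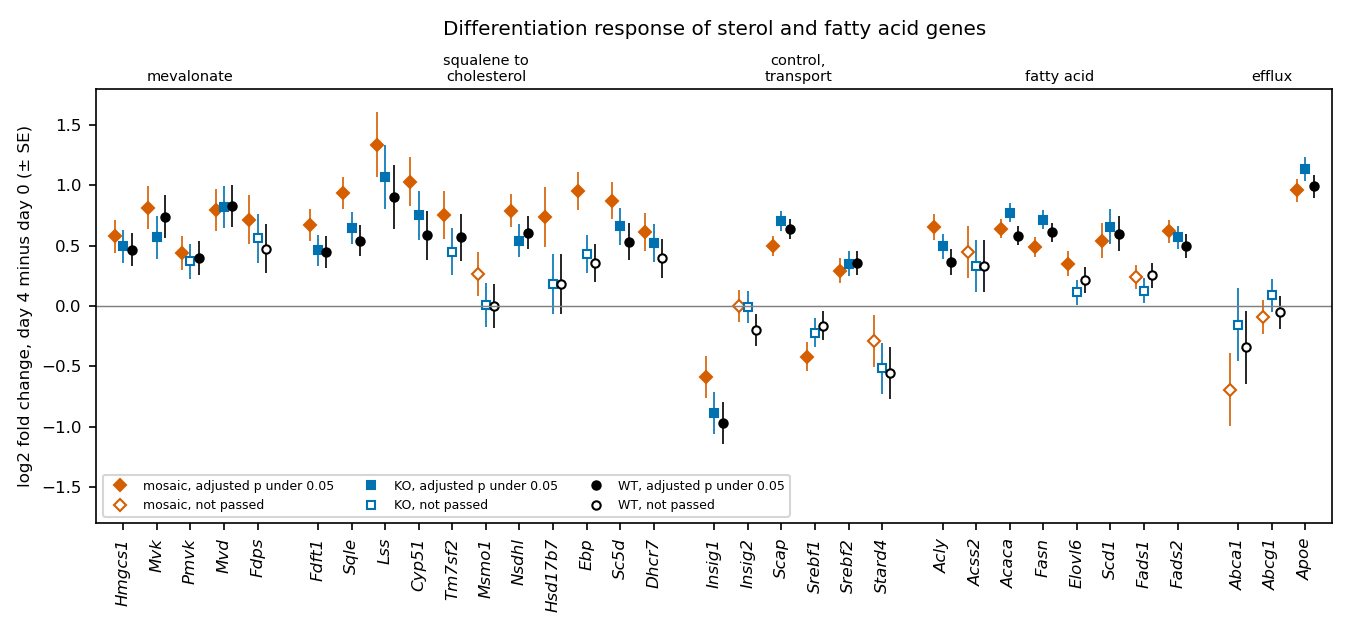
Log2 fold change, day 4 minus day 0, of the 33 measured genes in mosaic, KO and WT cultures, from left to right within each gene, with bars of ± 1 SE of the fit. Filled symbols passed an adjusted p of 0.05, and the synthesis genes lie above 0 while Insig1 lies below it in all 3 cultures.

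The counts depended on single arrays. Without the mosaic day 4 array of replicate 3, 19 genes rose and 2 fell in the mosaic cultures, with a median of 0.39, and 12 of the 16 cholesterol enzymes rose in place of 15. That array enters no WT or KO mean, but it widened the spread shared by all groups: without it 23 rose and 2 fell in KO and 24 rose and 3 fell in WT, with the same medians. In these fits 12.6% of all genes rose in mosaic, 15.3% in KO and 17.7% in WT. Leaving out each array in turn, the cholesterol enzymes that passed numbered 12 to 15 in mosaic, 7 to 14 in KO and 4 to 14 in WT, the lowest WT counts of 4 and 5 being without the WT day 0 array of replicate 3 and of replicate 1. Against a minimum change of 1.2-fold, 9 passed in mosaic, 3 in KO and 1 in WT. Of all 19016 genes, 1934 in mosaic, 1912 in KO and 2037 in WT passed that test in either direction. The 1 of 16 in WT was thus not above the share of all genes that passed in either direction. The share that only rose in that test is not given here. The WT count of 20 genes in either direction was 12 without the WT day 0 array of replicate 1 and 13 without that of replicate 3. In the same 2 fits 5381 and 5224 of all genes passed in WT, against 6386 with all arrays. The WT counts of 5 and 4 of the 16 cholesterol enzymes were thus near the share of all genes that passed in either direction. The share that only rose is not given for these 2 fits. With all arrays, 17.2% of all genes rose in WT. The 8 genes that passed in all 3 cultures whichever array was left out were Mvd, Sqle, Nsdhl, Scap, Acaca, Fasn, Fads2 and Apoe, and each of them rose.

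In the mevalonate steps, which build the isoprenoid units of all sterols, 5 of 5 measured enzymes rose in the mosaic cultures, 3 in KO and 4 in WT. Hmgcs1, which makes HMG-CoA, measured 12.05, 12.21 and 12.72 in mosaic at day 4, against 11.62, 11.91 and 11.72 at day 0. In KO it measured 12.03, 12.13 and 11.97 at day 4, against 11.60, 11.57 and 11.49 at day 0, and in WT 12.14, 12.02 and 12.07 at day 4, against 11.53, 11.79 and 11.52 at day 0. Every day 4 array was above every day 0 array of its culture, and the rise was 1.49-fold in mosaic, 1.41-fold in KO and 1.38-fold in WT (SE 0.14 log2 each; limma adjusted p = 0.00403, 0.0114 and 0.0143). The WT call was lost without the WT day 0 array of replicate 1 or 3 or the WT day 4 array of replicate 1, with an adjusted p of at most 0.0564. Without replicate 3 of day 4 the mosaic change was 0.38 (adjusted p = 0.0174).

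Mvd, which decarboxylates mevalonate diphosphate, rose by 0.80 in mosaic, 0.82 in KO and 0.83 in WT (SE 0.17; limma adjusted p = 0.00225, 0.0018 and 0.00157), and by 0.55 in mosaic without replicate 3 of day 4 (adjusted p = 0.0096). Its levels were 8.49, 8.29 and 9.13 in mosaic at day 4 against 8.0, 7.91 and 7.61 at day 0, and 8.20, 8.53 and 8.51 in KO at day 4 against 7.50, 7.70 and 7.59 at day 0. In WT they were 8.53, 8.55 and 8.33 at day 4 against 7.44, 7.80 and 7.70 at day 0. The groups did not overlap in any culture. Mvk, the mevalonate kinase, rose by 0.81, 0.57 and 0.74 in mosaic, KO and WT, with 0.50 in mosaic without replicate 3 of day 4 (adjusted p = 0.00196), and its KO call was lost on leaving out any of 4 KO arrays (adjusted p up to 0.0933). Pmvk, the phosphomevalonate kinase, changed by 0.44, 0.37 and 0.40 and passed in mosaic (adjusted p = 0.0306) and WT (0.0415) but not in KO (0.0663); the mosaic call was lost without the mosaic day 4 array of replicate 3 or the day 0 array of replicate 1 or 2 (up to 0.157), and the WT call without any of 5 WT arrays (up to 0.152). Without the mosaic day 4 array of replicate 3, Pmvk changed by 0.21 in mosaic and passed in KO (0.37, adjusted p = 0.00603). Fdps, which makes farnesyl diphosphate, changed by 0.72, 0.56 and 0.47 and passed in mosaic (0.0147) but not in KO or WT. The mosaic call was lost without the mosaic day 4 or day 0 array of replicate 3 (up to 0.0591). Without the day 4 one the calls turned round: Fdps passed in KO (adjusted p = 0.00213) and WT (0.0064) and not in mosaic (0.38, 0.0539).

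From squalene to cholesterol, 10 of 11 enzymes rose in mosaic, 7 in KO and 7 in WT. Lss, which folds the squalene chain into the lanosterol ring system, had the largest change of the cholesterol enzymes in each culture. It measured 8.91, 8.79 and 10.29 in mosaic at day 4, against 7.86, 8.02 and 8.09 at day 0. It measured 8.88, 8.92 and 8.86 in KO at day 4, against 7.80, 7.67 and 7.98 at day 0, and 8.66, 8.61 and 8.64 in WT at day 4, against 7.57, 8.10 and 7.54 at day 0. The groups did not overlap, and the lone mosaic value of 10.29 was more than 1 log2 unit above the other 17 arrays. The change was 1.34 ± 0.27 in mosaic, 1.07 ± 0.27 in KO and 0.90 ± 0.27 in WT (SE; limma adjusted p = 0.00112, 0.00607 and 0.0157), and in mosaic it was 0.86 ± 0.14 without replicate 3 of day 4. The WT call was lost without the WT day 0 array of replicate 1 or 3 (adjusted p up to 0.0614).

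Cyp51, the demethylase that acts on lanosterol, measured 9.35, 9.50 and 10.45 in mosaic at day 4 and 8.76, 8.82 and 8.64 at day 0. It measured 9.35, 9.18 and 9.36 in KO at day 4 and 8.78, 8.44 and 8.42 at day 0, and 9.29, 9.17 and 9.22 in WT at day 4 and 8.65, 8.84 and 8.42 at day 0. It rose by 1.03 in mosaic, 0.75 in KO and 0.59 in WT (SE 0.20; limma adjusted p = 0.00101, 0.0101 and 0.0348), with no overlap in any culture, and by 0.69 in mosaic without replicate 3 of day 4. The WT call was lost without any of 5 of the 6 WT arrays (up to 0.13). Sqle, the squalene epoxidase and a rate-limiting step, rose by 0.93, 0.64 and 0.54 (SE 0.13; adjusted p = 3.65e-05, 0.00116 and 0.00412) in mosaic, KO and WT.

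Nsdhl, a sterol dehydrogenase of the demethylation steps, rose by 0.79, 0.54 and 0.61 in mosaic, KO and WT, and Sc5d, a sterol desaturase, rose by 0.87, 0.66 and 0.53. Fdft1, the squalene synthase, rose by 0.67, 0.46 and 0.45. For the last, the KO call was lost without the KO day 0 array of replicate 2 or 3 (adjusted p up to 0.062) and the WT call without the WT day 0 array of replicate 1 or 3 (0.0532), and the WT call of Sc5d was lost without the WT day 0 array of replicate 3 (0.0501). Dhcr7, the reductase of the final step, rose in mosaic (0.61) and KO (0.52, lost without any of 3 KO arrays, adjusted p up to 0.12) and changed by 0.39 in WT (adjusted p = 0.0684). Without the mosaic day 4 array of replicate 3 it passed in all 3 cultures, with 0.39 in mosaic (adjusted p = 0.0451) and the same 0.39 in WT (0.0179). Tm7sf2, a sterol reductase, rose in mosaic (0.75) and WT (0.57, lost without any 1 of the WT arrays, up to 0.0982) and changed by 0.45 in KO (0.105). Without that array it too passed in all 3, with 0.42 in mosaic (adjusted p = 0.0197) and 0.45 in KO (0.00577).

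Ebp, the sterol isomerase, passed in mosaic and, with all arrays, not in KO or WT. It measured 8.46, 8.41 and 8.97 in mosaic at day 4 against 7.61, 7.63 and 7.74 at day 0, 7.96, 7.98 and 8.18 in KO at day 4 against 7.63, 7.77 and 7.44 at day 0, and 8.35, 8.11 and 7.70 in WT at day 4 against 7.71, 7.67 and 7.72 at day 0. The day 4 arrays were above the day 0 arrays in mosaic and KO and overlapped them in WT. Its change was 0.95 in mosaic, 0.43 in KO (adjusted p = 0.0502) and 0.36 in WT (0.0881), and the mosaic value was 0.77 without replicate 3 of day 4 (adjusted p = 0.00105). In that fit the KO change (adjusted p = 0.0223) and the WT change (0.0477) passed too. The difference between the mosaic and WT responses, 0.60, did not pass (0 of 19016 genes passed for that difference). Hsd17b7, the ketosteroid reductase of the demethylation steps, passed in mosaic only (0.74, adjusted p = 0.0371), and not without replicate 3 of day 4 (0.37, 0.21) or of day 0. Msmo1, the methylsterol oxidase, was the only cholesterol enzyme that passed in no culture, with changes of 0.26, 0.01 and 0.00 in mosaic, KO and WT. Its mosaic levels were 8.87, 9.05 and 9.90 at day 4 and 8.98, 9.13 and 8.91 at day 0, so that only replicate 3 of day 4 lay above the day 0 range, and the mosaic change was -0.05 without it.

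The genes of sterol sensing and transport did not move as a group. Insig1, the anchor that retains SREBP in the endoplasmic reticulum and is itself an SREBP target, fell while the enzymes rose. It measured 10.02, 10.18 and 11.00 in mosaic at day 4, against 10.95, 11.09 and 10.92 at day 0. It measured 10.09, 9.96 and 10.09 in KO at day 4, against 10.97, 10.97 and 10.88 at day 0, and 9.86, 10.01 and 9.97 in WT at day 4, against 10.89, 11.08 and 10.79 at day 0. The WT and KO arrays did not overlap between days, while the third mosaic day 4 array lay within the day 0 range. The change was -0.59 in mosaic, -0.89 in KO and -0.97 in WT (SE 0.17; limma adjusted p = 0.0178, 0.000894 and 0.000416), and -0.89 in mosaic without that array (adjusted p = 8.61e-06). With it, the mosaic call was lost on leaving out the mosaic day 0 array of replicate 2 or the day 4 array of replicate 1 or 2 (up to 0.103).

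Scap, the SREBP escort, rose by 0.50 in mosaic, 0.71 in KO and 0.64 in WT (SE 0.08; limma adjusted p = 0.000219, 6.83e-06 and 1.84e-05). It measured 9.11, 9.11 and 8.98 in mosaic at day 4 against 8.62, 8.50 and 8.58 at day 0, 9.23, 9.44 and 9.32 in KO at day 4 against 8.58, 8.59 and 8.70 at day 0, and 9.11, 9.27 and 9.17 in WT at day 4 against 8.44, 8.62 and 8.57 at day 0. The days did not overlap in any culture. Another, dimmer Scap probe set (mean 5.22, against 8.88 for the brighter) changed by 0.13, 0.10 and 0.20 in mosaic, KO and WT. Srebf2, the gene of SREBP2, rose by 0.29, 0.35 and 0.36 (adjusted p = 0.0406, 0.0149 and 0.0116), but each of these calls was lost on leaving out at least 1 array of the culture, the mosaic call without replicate 3 of day 4 among them (0.18, adjusted p = 0.212).

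Srebf1, the gene of SREBP1 and an LXR target, had estimates below 0 in all 3 cultures. It measured 8.0, 7.71 and 7.39 in mosaic at day 4 against 8.22, 8.08 and 8.06 at day 0, 7.77, 8.0 and 7.95 in KO at day 4 against 8.07, 8.19 and 8.13 at day 0, and 7.94, 8.13 and 7.97 in WT at day 4 against 8.16, 8.23 and 8.15 at day 0. Every day 4 array was below every day 0 array of its culture, and only the mosaic change passed (-0.42, adjusted p = 0.0147; KO -0.22, 0.199; WT -0.17, 0.3), which it did not without replicate 3 of day 4 (-0.26, 0.0838) or replicate 1 of day 0. Stard4, a soluble sterol carrier and SREBP target, changed by -0.29, -0.52 and -0.56 in mosaic, KO and WT without passing. It measured 6.83, 7.19 and 8.07 in mosaic at day 4 against 7.64, 7.68 and 7.64 at day 0, and its day 4 arrays lay below its day 0 arrays in KO and WT. Without the mosaic day 4 array of replicate 3 it fell in all 3 cultures: -0.64 in mosaic, -0.52 in KO and -0.56 in WT (adjusted p = 0.00311, 0.00549 and 0.00299), and without that of replicate 1 it passed in KO and WT. Insig2, the other INSIG gene, changed by 0.00 (-0.09 without that of replicate 3), -0.01 and -0.20 and did not pass.

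In fatty acid synthesis 6 of 8 measured genes rose in mosaic, 5 in KO and 5 in WT. Acaca, the acetyl-CoA carboxylase that commits carbon to fatty acids, measured 8.43, 8.46 and 8.38 in mosaic at day 4 against 7.79, 7.79 and 7.77 at day 0, 8.56, 8.43 and 8.49 in KO at day 4 against 7.73, 7.63 and 7.81 at day 0, and 8.29, 8.46 and 8.39 in WT at day 4 against 7.78, 7.88 and 7.73 at day 0. All 9 day 4 arrays were above all 9 day 0 arrays. It rose 1.56-fold in mosaic, 1.71-fold in KO and 1.5-fold in WT (SE 0.08 log2; limma adjusted p = 8.46e-06, 1.19e-06 and 2.23e-05). Fasn, the fatty acid synthase, measured 10.44, 10.34 and 10.24 in mosaic at day 4 against 9.90, 9.86 and 9.79 at day 0, 10.38, 10.62 and 10.54 in KO at day 4 against 9.78, 9.83 and 9.78 at day 0, and 10.51, 10.46 and 10.47 in WT at day 4 against 9.82, 9.96 and 9.84 at day 0. The days were again fully apart, with changes of 0.49, 0.72 and 0.61 in mosaic, KO and WT (SE 0.08; adjusted p = 0.000206, 4.58e-06 and 2.43e-05).

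Acly, which supplies cytosolic acetyl-CoA from citrate, rose by 0.66, 0.49 and 0.36 in mosaic, KO and WT, the last not without the WT day 0 array of replicate 1 (adjusted p = 0.0562). Scd1, which makes oleate-type fatty acids, rose by 0.54, 0.66 and 0.60, the mosaic call being lost without the mosaic day 0 array of replicate 1 (0.0566) and its size being 0.33 without the day 4 array of replicate 3 (adjusted p = 0.0422). Fads2, the desaturase that opens polyunsaturated fatty acid synthesis, rose by 0.62, 0.57 and 0.49 (SE 0.10; limma adjusted p = 0.00014, 0.000311 and 0.00099). Its partner desaturase Fads1 changed by 0.24, 0.13 and 0.25 and did not pass (adjusted p = 0.102, 0.42 and 0.0675). Without the mosaic day 4 array of replicate 3 the mosaic change of Fads1 was 0.15, and the WT change passed (adjusted p = 0.0497). Elovl6, the elongase of palmitate, passed in mosaic only (0.35, against 0.11 in KO and 0.22 in WT; adjusted p = 0.0201), and not without replicate 2 or 3 of day 4 or replicate 1 of day 0 (up to 0.0987). Acss2, which makes acetyl-CoA from acetate, changed by 0.44, 0.33 and 0.33 and passed in none. Its mosaic change was 0.06 without replicate 3 of day 4, and in that fit it passed in KO (adjusted p = 0.0245) and WT (0.0205), while without replicate 2 of day 4 it passed in mosaic (0.70).

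**Figure D2:**
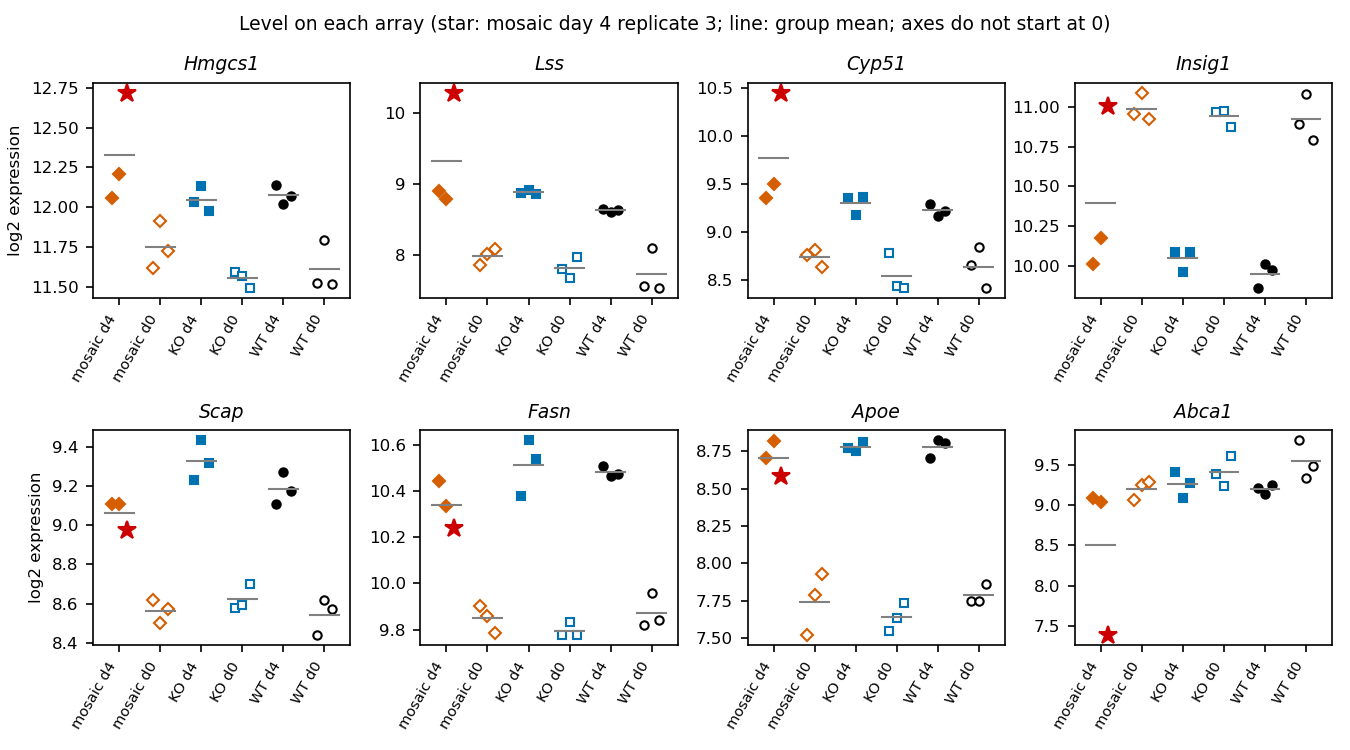
Log2 level on each of the 18 arrays for 8 genes, by group, with a grey line at each group mean and a star for the mosaic day 4 array of replicate 3 (the axes do not start at 0). Day 4 arrays lie above day 0 arrays for Hmgcs1, Lss, Cyp51, Scap, Fasn and Apoe, and the star stands above every other array for Hmgcs1, Lss and Cyp51 and far below them for Abca1.

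Of the efflux genes only Apoe, the apolipoprotein that carries sterols between brain cells, rose, and it had the smallest adjusted p of the 33 genes in each culture. It measured 8.71, 8.82 and 8.58 in mosaic at day 4 against 7.52, 7.79 and 7.93 at day 0, 8.77, 8.75 and 8.81 in KO at day 4 against 7.55, 7.64 and 7.74 at day 0, and 8.71, 8.83 and 8.80 in WT at day 4 against 7.75, 7.75 and 7.87 at day 0. With all day 4 arrays above all day 0 arrays, it rose 1.94-fold, 2.2-fold and 1.99-fold in mosaic, KO and WT (SE 0.10 log2; limma adjusted p = 1.74e-06, 2.72e-07 and 1.34e-06). Abca1, which loads sterols onto apolipoproteins at the cell surface, changed by -0.69, -0.16 and -0.34 (SE 0.30) and passed in none. The mosaic value depended on the day 4 array of replicate 3: without it the change was -0.13 (adjusted p = 0.573), and the call was gained without the day 4 array of replicate 1 or 2. Abca1 in WT passed without the mosaic day 4 array of replicate 3 (adjusted p = 0.0456). Abcg1, a related exporter, changed by -0.09 (0.05 without that array), 0.09 and -0.05 and stood at 5.53 to 6.27 on the 18 arrays.

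Genes around these pathways, from lists chosen by function, moved less uniformly. Their counts stand against 14.4% of all genes higher and 11.9% lower in mosaic, 15% and 12.4% in KO, and 17.2% and 16.3% in WT. Of 27 genes of fatty acid elongation, activation and precursor supply, 15 rose and 2 fell in mosaic, 15 rose and 2 fell in KO, and 11 rose and 3 fell in WT. The elongases Elovl7 (2.42, 2.08 and 1.96 in mosaic, KO and WT) and Elovl1 (1.27, 1.02 and 1.24) rose most, and Thrsp, a lipogenic regulator known from liver, fell (-0.83, -0.80 and -0.40). Of 20 genes of LXR signalling and sterol handling, 6 rose and 3 fell in mosaic, 5 rose and 3 fell in KO, and 4 rose and 4 fell in WT. The WT counts and the falls in mosaic and KO are near the shares of all genes. The rises in mosaic and KO are above them. Apod, a lipocalin, rose by 2.92, 2.31 and 2.68, Cyp7b1, an oxysterol hydroxylase, by 1.69, 1.76 and 1.66, and Cyp46a1, which makes the main oxysterol of the brain, by 1.15, 0.97 and 1.01. Scarb1, a lipoprotein receptor, and Npc1, which exports cholesterol from lysosomes, fell in all 3 (Scarb1 -0.71, -0.71 and -0.64; Npc1 -0.37, -0.68 and -0.55).

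Of 7 genes that process SREBP or degrade sterol-regulated proteins, none rose, and 2 fell in mosaic, 1 in KO and 3 in WT. Mbtps2, the membrane protease that frees SREBP in the Golgi, fell in each (-0.29, -0.41 and -0.50 in mosaic, KO and WT; limma adjusted p = 0.0272, 0.00318 and 0.00065). Of 10 genes of the non-sterol isoprenoid branch, 3 rose and 1 fell in mosaic, 3 rose in KO, and 2 rose and 3 fell in WT, with the farnesyltransferase subunit Fnta the largest rise (1.31, 1.09 and 1.02). Of 12 genes of fatty acid oxidation, 1 rose in mosaic, 1 in KO, and 2 rose and 1 fell in WT, no larger a share than among all genes; the lipid-sensing receptor gene Ppard rose in all 3 (0.62, 0.53 and 0.36).

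Oligodendrocyte and cycling cell markers moved further than the sterol genes over the same days. The marker counts below stand against 14.4% of all genes higher and 11.9% lower in mosaic, 15% and 12.4% in KO, and 17.2% and 16.3% in WT. All 11 measured oligodendrocyte markers rose in each culture, with median changes of 3.34 in mosaic, 3.24 in KO and 3.08 in WT. Their mean level was 9.14 to 9.37 in mosaic at day 4 against 5.78 to 6.08 at day 0, 8.77 to 9.17 in KO at day 4 against 5.82 to 6.20 at day 0, and 8.81 to 9.35 in WT at day 4 against 6.01 to 6.06 at day 0. All 8 cycling cell markers fell (medians -2.29, -2.75 and -2.51). Of 9 astrocyte markers, 7 rose and 2 fell in each culture, and of 10 neuron markers 7 rose in each and 1 fell in mosaic and in WT. Their median changes, 0.84, 0.84 and 0.80 for astrocyte and 0.85, 0.77 and 0.74 for neuron markers in mosaic, KO and WT, were nearer in size to the medians of the cholesterol enzymes (0.77, 0.53 and 0.50). Neural stem cell markers mostly fell (6 of 9 in mosaic, 5 in KO and 6 in WT). The 8 microglia markers averaged 4.60 to 4.91, near the array medians of 4.85 to 4.99, and the 9 fibroblast or vascular markers averaged 5.0 to 5.45; at most 2 of either list rose. In a culture of mixed cells, more cells of a type and more RNA per cell cannot be told apart, and the part of these marker changes in the sterol results was not tested.

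KO and WT cultures did not differ detectably in these genes. In the KO against WT comparison, 0 of 33 genes passed in limma at day 0 or at day 4, and 0 of 19016 genes passed. None of the 33 reached an unadjusted p of 0.05 at either day, against 3.61% of all genes at day 0 and 12.7% at day 4. The median difference of the 33, KO minus WT, was 0.05 at day 4 and -0.00266 at day 0. The largest estimates were 0.25 for Lss at day 4 and 0.19 for Mvk at day 0. The 95% intervals of the 33 differences lay between -0.63 and 0.82 at day 4 and between -0.78 and 0.65 at day 0, which sets the size of difference these arrays leave possible. The differentiation response itself, KO minus WT, differed by 0.07 at the median, and none of the 33 reached an unadjusted p of 0.05 (9.51% of all genes did).

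Mosaic cultures did not differ detectably from KO or from WT at day 0 either: 0 of 33 genes passed, none reached an unadjusted p of 0.05, and 4.24% and 4.3% of all genes did. The medians were 0.07 against KO and 0.10 against WT. The 95% intervals of the 33 differences lay between -0.86 and 0.74 against KO and between -0.99 and 0.82 against WT. At day 4 no gene passed (0 of 19016 in limma), but 10 of 33 against KO and 16 of 33 against WT reached an unadjusted p of 0.05, against 6.07% and 15.9% of all genes. All 16 cholesterol enzymes had estimates above 0 in both comparisons, with medians of 0.32 against KO and 0.41 against WT, where all genes had medians of 0.00276 and 0.00672. Ebp (0.57 against KO and 0.56 against WT), Sqle (0.35 and 0.44) and Lss (0.44 and 0.69) were among the higher genes, with adjusted p of 0.762, 0.797 and 0.844 against KO and 0.163, 0.168 and 0.244 against WT. Abca1 was the lowest (-0.75 against KO and -0.70 against WT, adjusted p = 0.797 and 0.286). The 2 comparisons share the mosaic arrays.

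Most of these day 4 differences rested on a single array. Without the mosaic day 4 array of replicate 3 the median of the 33 genes was -0.02 against KO and 0.05 against WT, and 3 and 2 genes reached an unadjusted p of 0.05, against 4.2% and 10.2% of all genes. The cholesterol enzymes had medians of 0.07 against KO, with 10 of 16 above 0, and 0.15 against WT, with 12 of 16 above 0. Ebp kept 0.39 against KO (unadjusted p = 0.0171) and 0.38 against WT (0.021), and its mosaic day 4 replicates 1 and 2 were each above every KO and WT day 4 array. The other genes at an unadjusted p under 0.05 were Scap (-0.22) and Elovl6 (0.25) against KO and Sqle (0.23) against WT, and no gene passed after adjustment. Set singly against the WT day 4 mean, the median difference of the 33 genes was 0.02, 0.08 and 0.66 for mosaic day 4 replicates 1, 2 and 3, while the median over all genes was 0.00435, 0.02 and -0.01. Against the KO day 4 mean it was -0.01, 0.00703 and 0.67. The differentiation response of mosaic minus that of WT had a median of 0.13, with 2 of 33 at an unadjusted p under 0.05 (12.4% of all genes), and mosaic minus KO a median of 0.12 with 1 of 33 (4.29%); without the array these medians were -0.03 and -0.06.

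**Figure D3:**
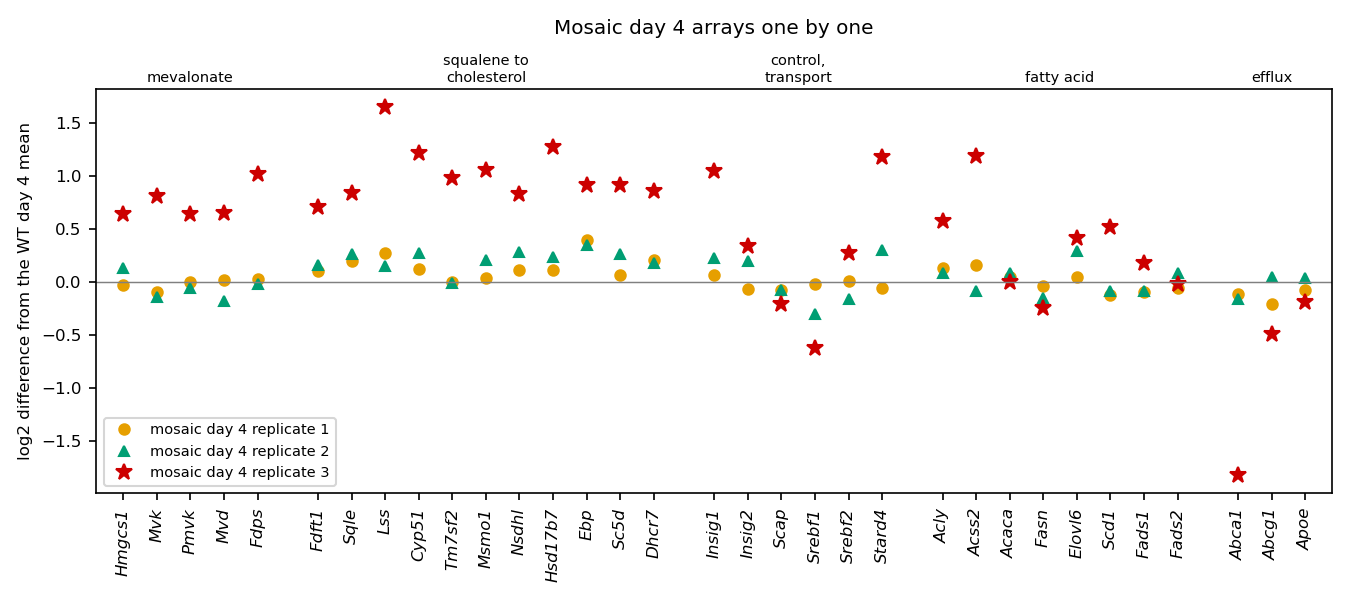
Log2 difference of each mosaic day 4 array from the mean of the WT day 4 arrays, for the 33 genes in order of role. Replicates 1 and 2 lie between -0.30 and 0.40, with Ebp the highest of both, and replicate 3 (star) lies above them for all 16 cholesterol enzymes, Insig1, Stard4 and Acss2 and at -1.82 for Abca1.

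On that array the whole cholesterol pathway was high. All 16 cholesterol enzymes had their highest level of all 18 arrays there, and so had 23 of the 33 genes, against 8.87% of all genes, while no other array held the highest level of any cholesterol enzyme. Since 1 array carries this pattern, there is no replicate check and no test, and the values below are differences from the mean of the other two mosaic day 4 arrays. By that measure 18 of the 33 genes were at least 1.5-fold higher and 1 was at least 1.5-fold lower, against 1.88% and 1.86% of all genes. For the cholesterol enzymes the count was 14 of 16, with a median of 0.74. The differences went from 0.54 for Ebp to 1.44 for Lss (2.72-fold), with Hsd17b7 at 1.10, Cyp51 at 1.02, Fdps at 1.02, Tm7sf2 at 0.99, Mvk at 0.94 and Msmo1 at 0.93. Among all 19016 genes ranked by this difference, 10 of the 33 were in the highest 100, with Lss 9th and Acss2 19th.

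Insig1 and Stard4, whose estimates with differentiation were below 0, were also high there. Insig1 measured 11.00, against 10.02 and 10.18 on the other two arrays, a difference of 0.91, and lay inside its day 0 range. Stard4 measured 8.07, against 6.83 and 7.19, a difference of 1.06 and its highest level of the 18 arrays. On this array both thus differed in the direction opposite to their estimate for differentiation, whereas the enzymes differed in the same direction.

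Abca1, Abcg1 and Srebf1 were low on the same array. Abca1 measured 7.38, against 9.09 and 9.04 on the other two arrays and 9.04 to 9.81 on the other 17 arrays, which is 3.22-fold below the mean of its 2 partners. It ranked 4th from the lowest of all 19016 genes by this measure. Abcg1 (5.53, against 5.82 and 6.08) and Srebf1 (7.39, against 8.0 and 7.71) also had their lowest level of the 18 arrays there. With Abca1, that was so for 3 of the 33 genes, near the share of 7.06% among all genes. By the difference from the mean of the 2 partners, Srebf1 ranked 754th and Abcg1 1036th from the lowest. Only 1 of the 33 genes, Abca1, was among the lowest 200 of all 19016. Of the genes with a DR4-like match, Abca1 and Srebf1 had their lowest level of the 18 arrays here, and Fasn was 0.15 lower and within its range on the other arrays. Whether the match has a part in these levels was not tested.

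The fatty acid arm was split on this array. Acss2 measured 9.45, against 8.42 and 8.18, a difference of 1.15, and Scd1 11.21, against 10.57 and 10.61, a difference of 0.62. Acly differed by 0.47, Fads1 by 0.27 and Elovl6 by 0.25. Acaca, Fasn and Fads2 did not share this: Acaca measured 8.38, against 8.43 and 8.46, Fasn 10.24, against 10.44 and 10.34, and Fads2 12.05, against 12.03 and 12.16. The median over the 8 genes of fatty acid synthesis was 0.26, against 0.74 for the 5 mevalonate enzymes, 0.75 for the 11 later sterol enzymes and -0.01 for all genes.

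Neighbouring pathways differed less on this array. The median difference was 0.07 over 10 genes of the isoprenoid branch, -0.01 over 7 genes of SREBP processing, 0.07 over 20 genes of LXR signalling and sterol handling, 0.20 over 27 genes of elongation and supply and 0.07 over 12 genes of fatty acid oxidation. Of the LXR and sterol handling genes, Scarb1 (0.62) and Vldlr (0.60), both lipoprotein receptors, were at least 1.5-fold higher, and Apod (-0.69) was at least 1.5-fold lower. Acsl4 (0.83), an acyl-CoA synthetase, and Elovl7 (0.72) were the elongation and supply genes past that size. In the elongation and supply list, however, 22 of 27 genes were above the mean of the other two arrays and 14 (51.9%) had their highest level of all 18 arrays here, against 8.87% of all genes; in the other neighbouring lists that was so for 2 of 10, 0 of 7, 3 of 20 and 2 of 12.

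Other genes moved on that array too. The cycling cell markers were at least 1.5-fold higher in 7 of 8 cases (median 0.83), against 1.88% of all genes. Their mean levels were 5.83, 6.50 and 7.0 on mosaic day 4 replicates 1, 2 and 3, against 5.65 to 6.25 in KO and 5.94 to 6.25 in WT at day 4. Neuron markers were at least 1.5-fold lower in 5 of 10 cases (median -0.58), against 1.86% of all genes. Their mean levels were 8.02, 7.77 and 7.38, against 7.59 to 8.12 in KO and 7.67 to 7.75 in WT. Oligodendrocyte markers had a median of -0.02 and mean levels of 9.37, 9.25 and 9.14, with Mog, a surface protein of mature oligodendrocytes, lowest at -1.75 and Opalin, another oligodendrocyte membrane protein, highest at 1.01. Of these 11 markers 5 had their highest level of all 18 arrays here, against 8.87% of all genes. Microglia markers averaged 4.85, 4.81 and 4.65. Pcdh19 stood at 5.52, and at 5.65 on the mosaic day 0 array of replicate 3, as given above. The part of any of these in the sterol pattern was not tested.

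**Figure D4:**
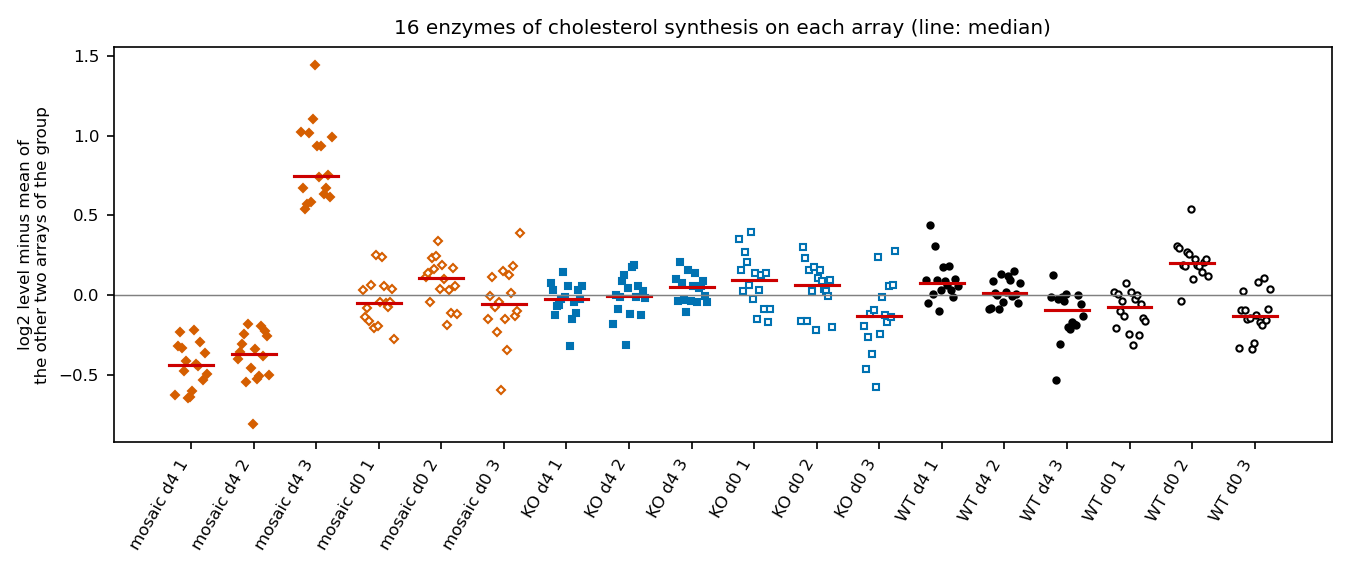
Log2 level of each of the 16 cholesterol enzymes minus the mean of the other two arrays of its group, for all 18 arrays, with a line at the median. The mosaic day 4 array of replicate 3 has a median of 0.74, while the arrays of the other 5 groups have medians between -0.13 and 0.20.

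Deviations of the cholesterol enzymes were smaller on the arrays outside the mosaic day 4 group. On the WT day 0 array of replicate 2, 15 of the 16 were above the mean of the other two WT day 0 arrays, with a median of 0.20 and a highest difference of 0.54 (Lss), and none was past 1.5-fold. Over the 15 arrays of the other 5 groups the medians lay between -0.13 and 0.20, and at most 1 of the 16 was past 1.5-fold on any array, while 1.31% to 2.89% of all genes were.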

How the data were processed

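Total RNA was hybridised to 18 Affymetrix arrays. The authors deposited a table of log2 values per probe set; the base was inferred from the range of 0.722 to 13.97, and how the values were normalized is not given in the sources used here. No detection calls accompany them, so precision rests on the 3 arrays per group. Of 41345 probe sets, 23521 carried 1 gene symbol in the platform annotation, 1814 several and 16010 none; only the first were named, and 23328 matched the RefSeq GRCm38.p6 gene table by Entrez number, with 0 symbols updated. Where a gene had several probe sets, the brightest on average was used. Genes not exceeding the 25th percentile on 3 or more arrays were dropped, leaving 19016 of 22180.

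A model with 1 mean per group was fitted to all 18 arrays with limma 3.58.1 in R 4.3.3, and 12 differences between groups were tested two-sided with Benjamini-Hochberg adjustment over all genes. The median standard error of a difference between groups was 0.126, and 0.178 for a difference of differences. The method was tested on simulated data. Single arrays were compared without a test. Alternatives changed the normalization, filter, probe set rule, model, samples and threshold, and left out each array in turn. All 36 genes could be named, with up to 4 genes of each other pathway or marker list that passed with the largest changes, and Pcdh19. The genes and the lists were chosen with earlier results of these data known. Motifs were searched with Python 3.11.15.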

Additional observations from a re-analysis of the deposited data

How the results depend on the processing

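The number of the 33 genes past the threshold, in either direction, was 26 in mosaic, 19 in KO and 20 in WT cultures. It stayed within 1.5 times of that under both other normalizations, both other filters, averaged probe sets, a variance trend and array weights. Of all 19016 genes, 4989 in mosaic, 5211 in KO and 6386 in WT passed in the main fit. A stricter adjusted p of 0.01 gave 11 in WT, where 4046 of all genes passed. A tested minimum change of 1.2-fold gave 13 in mosaic, 9 in KO and 6 in WT. In that test 1934, 1912 and 2037 of all genes passed in the same order. Fitting only the groups compared gave 16 in mosaic, where 3763 of all genes passed. Leaving out each array in turn gave 21 to 26 in mosaic, 15 to 25 in KO and 12 to 27 in WT. For mosaic against WT at day 4 it gave 0 to 1: without the mosaic day 4 array of replicate 1, Srebf1 passed at -0.47 (adjusted p = 0.0471). The other comparisons between genotypes gave 0 throughout.

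With the replicate number as a block, 25, 19 and 21 genes passed in mosaic, KO and WT. Whether arrays of the same number belong together is not given. Their deviations from the group means correlated at -0.146 to 0.165 over 45 pairs, 4 of them over 0.1. Between day 0 and day 4 of the same culture every such correlation was above 0, from 0.015 (mosaic replicate 3) to 0.164 (KO replicate 1). Among arrays of other groups, 10 of 18 arrays correlated best with one of their own number. Whether the replicates are paired was not tested. Over all settings and single genes, 136 values lost the threshold, 65 gained it, and none that passed changed sign. Another 115 values, past it in neither fit, moved by more than the replicate spread. The remaining 11168 passed in both fits in the same direction, or passed in neither and moved by less than that spread. For values that passed in neither fit the sign was not compared.

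Scaling moved the split of all genes more than that of these 33. In WT, 51.4% of the genes that passed were higher, 61.5% after quantile normalization and 44.7% with a common array median; in mosaic 54.7%, 56.9% and 62.7%. The median of all genes shifted by at most 0.04. Over all settings the neighbouring lists gave 4 to 17 genes in WT for elongation and supply and 5 to 11 for sterol handling, 0 to 4 for SREBP processing and 3 to 6 for the isoprenoid branch. The limits are the 3 technical arrays per group, values without detection calls, and 1 probe set for nearly every gene. Why counts moved with a setting was not tested.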
